A study of Mus musculus with 2 samples.

Results

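The genes described here encode receptors for catecholamines and acetylcholine and the proteins next to them in the membrane: the beta receptors Adrb1 and Adrb3, the alpha-1 receptors Adra1a, Adra1b and Adra1d, the muscarinic receptor Chrm2, the adenylyl cyclases Adcy5 and Adcy6, and the receptor kinase Grk5. They were chosen by gene identifier, and all 9 were found among the 43346 mouse genes measured. The study measured total RNA of the heart of healthy B6NCrl mouse embryos at embryonic day 11.5, with males and females pooled, in 1 group of 2 libraries. Replicate 1 came from a pool of 109 embryos, and the number behind replicate 2 is not given in the labels. The labels record separate biosamples under the same donor identifier, so the spread between the libraries may be partly technical. No treatment, genotype or second stage was compared. The measurements therefore show how much RNA of each gene the tissue held and how closely the libraries matched.

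Norepinephrine and epinephrine act on beta receptors, which couple to the stimulatory G protein Gs, and Gs switches on adenylyl cyclases that make cyclic AMP. Acetylcholine acts in the heart mainly on Chrm2, which couples to inhibitory Gi proteins that restrain the cyclases and open an inwardly rectifying potassium channel, while alpha-1 receptors couple to Gq and phospholipase C. Receptor kinases such as Grk5 phosphorylate active receptors so that arrestins bind and signalling stops. Mouse embryos that cannot make catecholamines die in midgestation with failing hearts.

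Levels are given as TPM, an abundance corrected for transcript length and scaled to the same sum in each library, beside the expected count, which is the estimated number of reads. A gene was called detected at 1 TPM or more in both libraries. Mouse genes held 34447169 expected counts in replicate 1 and 25261719 in replicate 2. The 7 cardiomyocyte markers were detected in both libraries, with Tnnt2, the cardiac troponin T gene, at 2901 and 2894 TPM, as were all listed markers of endothelium, epicardium and cushion mesenchyme. In whole tissue, fewer cells of a type and less RNA per cell cannot be told apart. Of the 9 genes, 6 were detected, beside 56.4% of 21474 protein-coding genes. Their median level was 1.51 TPM, against 2.96 TPM for all protein-coding genes.

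**Figure D1:**
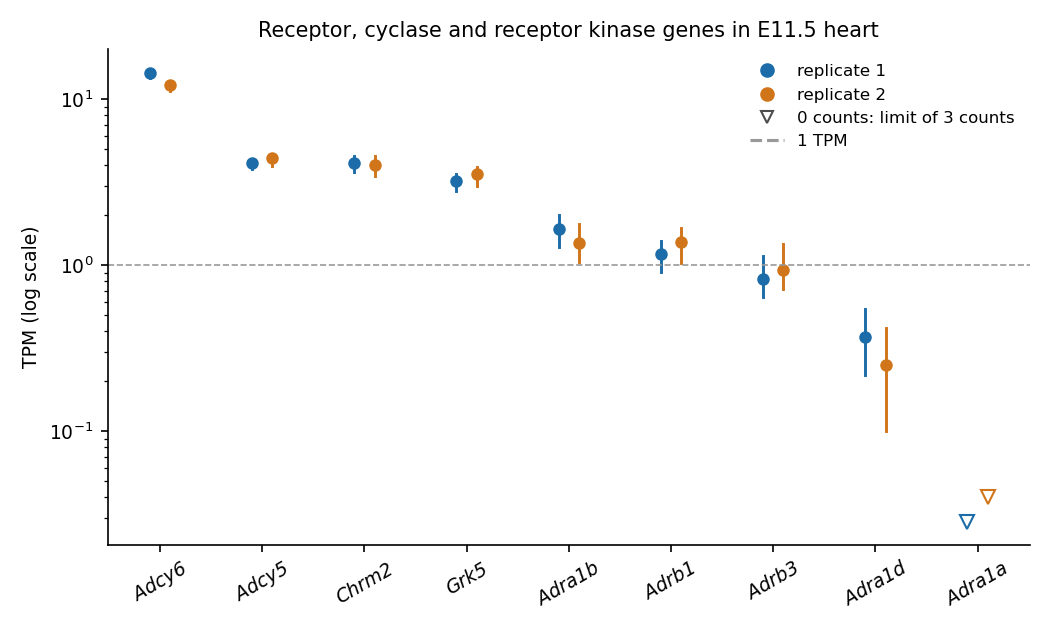
TPM of the 9 genes in each library on a log axis, ordered by mean level; points are the libraries, vertical lines are the TPM intervals in the authors' tables, open triangles mark the TPM that 3 counts would give for Adra1a, which had 0 counts, and the dashed line is 1 TPM. Adcy6 lies highest at 14.3 and 12.1 TPM, and Adrb3, Adra1d and Adra1a lie under the dashed line in both libraries.

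Among the receptors that raise cyclic AMP, Adrb1, the main beta receptor of the adult heart, had 1.16 TPM in replicate 1 and 1.37 TPM in replicate 2, from 79 and 66 reads (mean 1.26 ± 0.148 TPM, SD, n = 2). The authors quantified 1 transcript of the gene, with a length of 2491 bases. GENCODE M21, a later annotation than theirs, gives it 1 exon at chr19:56722199-56725150 on the plus strand (mm10). That span is longer than the quantified length, and the gene itself runs to 56733113 in M21. Adrb3, best known for driving fat breakdown in adipose tissue and located on chromosome 8, had 0.83 and 0.93 TPM from 55 and 44 reads. Both libraries put it just under the detection threshold. Adrb1 lay above Adrb3 in both libraries, by a mean of 1.43-fold, a log2 ratio of 0.52 ± 0.05 (SD, n = 2). The TPM intervals in the authors' tables overlapped between these genes in each library, so the order is narrow at this depth. Of the summed TPM of these 2 genes, Adrb1 held 58.3% in replicate 1 and 59.6% in replicate 2. With 2 libraries an exact two-sided sign-flip test cannot give a p under 0.5, so no p is given for any order of levels.

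Of the 5 adipocyte markers listed 1 was detected, Fabp4 at 2.03 and 1.94 TPM, and their summed level was 3.33 TPM in replicate 1 and 2.73 TPM in replicate 2. Cidea had 1.18 and 0.79 TPM, Adipoq had 0.12 and 0 TPM, and Ucp1 and Plin1 had 0 TPM in both libraries. The part of fat cells in the Adrb3 level was not tested. Adrb1 and Adrb3 are close relatives, and their longest identical stretch is shown because reads from it could in principle have been given to either gene. It is 30 bases long and lies in the coding sequence of both. The stretch is in capitals, with 20 bases on each side, for Adrb1 at chr19:56723324-56723393 (plus strand) and for Adrb3 at chr8:27227470-27227539 (minus strand), on GRCm38, the assembly also called mm10.
Adrb1: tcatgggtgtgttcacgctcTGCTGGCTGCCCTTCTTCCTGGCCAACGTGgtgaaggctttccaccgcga
Adrb3: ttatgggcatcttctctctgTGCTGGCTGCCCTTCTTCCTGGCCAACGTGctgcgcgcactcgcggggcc
The effective lengths in the files lie 99 bases below the transcript length, the value that reads of 100 bases give, and no run of 100 bases is shared between these receptors. All 100-base runs of Adrb1 were unique to it among annotated transcripts. For Adrb3 the unique share was 86.8%, and the remainder also occurs on the opposite strand in Gm45470, an annotated neighbour that is not analysed here.

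Among the alpha-1 receptors, Adra1b was highest with 1.66 and 1.36 TPM, from 116 and 73 reads (mean 1.51 ± 0.212 TPM, SD, n = 2). Adra1d had 0.37 and 0.25 TPM, from 19 and 9 reads, whose exact 95% Poisson intervals run from 11.4 to 29.7 and from 4.12 to 17.1 reads. Adra1a, the subtype known for contracting smooth muscle of the prostate, had 0 reads in both libraries. For a count of 0 a limit of 3 reads was set. It is 0.0284 TPM in replicate 1 and 0.0403 TPM in replicate 2 for a gene of this length. The exact 95% Poisson interval of 0 reads reaches 3.69 reads. The authors' intervals for Adra1a reach 0.0908 TPM in replicate 1 and 0.127 TPM in replicate 2. Folds taken against those higher bounds would be smaller than the ones given here. Against the limit of 3 reads, the measured level of Adra1b was 58.4-fold higher in replicate 1 and 33.8-fold higher in replicate 2. These folds take the Adra1b level as measured, without its own counting error. With the authors' posterior means, which give a gene without reads a small value from a prior, the mean log2 ratio of Adra1b to Adra1a was 4.67, and on protein-coding transcripts it was 4.85. The few reads of Adra1d make its distance to Adra1a less certain, and no fold is given. Adra1b exceeded Adra1d by a mean of 4.94-fold, a log2 ratio of 2.30 ± 0.20 (SD, n = 2), and held 81.8% and 84.5% of the alpha-1 TPM. On protein-coding transcripts alone that log2 ratio was 1.68.

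Adra1b and Adra1d share at most 20 identical bases, shown in capitals, again because they bear on how reads can be assigned, and they lie in coding sequence. The windows are chr11:43776370-43776429 for Adra1b and chr2:131546451-131546510 for Adra1d, both on the minus strand (GRCm38).
Adra1b: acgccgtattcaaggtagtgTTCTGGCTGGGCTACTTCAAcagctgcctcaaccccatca
Adra1d: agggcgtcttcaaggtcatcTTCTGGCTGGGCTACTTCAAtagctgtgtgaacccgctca
The longest stretch that Adra1a shares with Adra1b is 15 bases, and with Adra1d it is 20 bases. Every 100-base run of Adra1a and of Adra1b was unique to its gene.

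Levels of Adrb1 and Adra1b could not be ordered. Adra1b was higher in replicate 1, and Adrb1 was higher in replicate 2 by 0.01 TPM. On transcripts annotated as protein-coding alone, Adra1b had 1.15 and 0.83 TPM, and Adrb1 then stood above it in both libraries. That setting leaves out Adra1b-202, which is annotated as noncoding although its sequence is identical to that of the coding Adra1b-204.

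**Figure D2:**
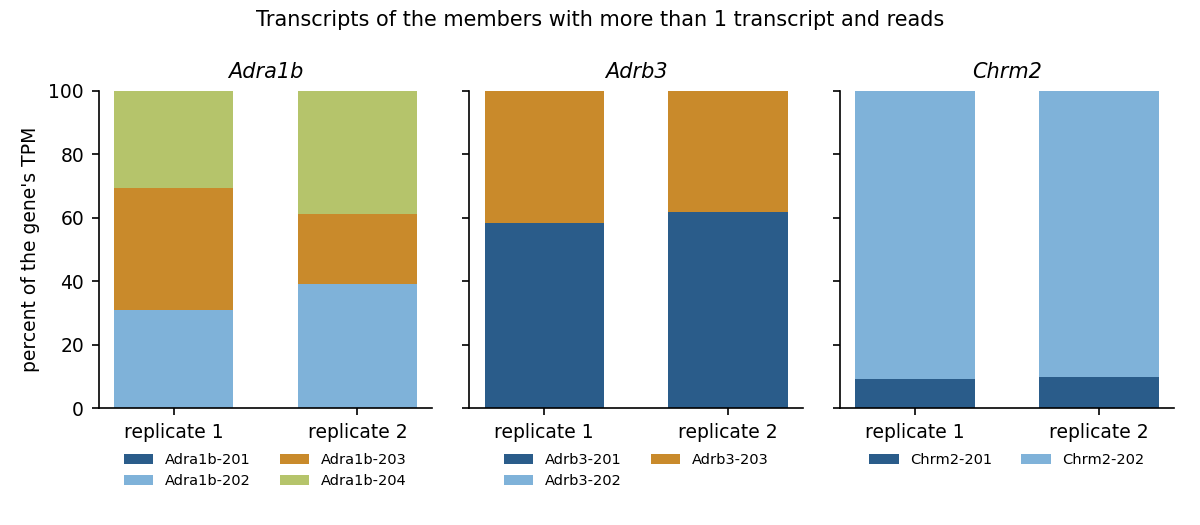
Percent of the TPM of Adra1b, Adrb3 and Chrm2 given to each annotated transcript in the authors' tables, stacked for each library. For Adra1b the share of Adra1b-203 is 38.4% in replicate 1 and 22.0% in replicate 2, while the shares of Adrb3 and Chrm2 transcripts differ little between libraries.

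Adra1b was the member whose RNA was assigned, by the authors' estimate, to transcripts with distant start sites. Transcripts Adra1b-202 and Adra1b-204 begin at 43836332 on chromosome 11 (minus strand), have the same 3047 bases and received equal reads, so they are counted together. They held 61.6% of the gene's TPM in replicate 1 and 78.0% in replicate 2, from 85.8 and 63.0 reads. Transcripts beginning 64878 bases further upstream, at 43901210, held 38.4% and 22.0%, from 30.2 and 10.05 reads, all given to Adra1b-203. Replicate 1 gave the distal transcripts a larger share than replicate 2 did, and both libraries gave the proximal transcripts more. Adra1b-203 also ends at 43776023, whereas Adra1b-202 and Adra1b-204 end at 43774606. The shares therefore need not reflect the starts alone. The authors' posterior means, which weigh in a prior, put the proximal share at 59.3% and 65.8%. With so few reads on the distal transcripts, the difference between libraries was not tested.

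The bases upstream of the starts of Adra1b are shown because RNA was assigned to transcripts from both. They are the 250 bases before each RefSeq start (GRCm38.p6, minus strand), at chr11:43901238-43901487 for the distal and chr11:43836490-43836739 for the proximal start, which in the longer transcripts lies within an intron. The RefSeq starts, 43901237 and 43836489, lie upstream of the transcript starts that received the reads, 43901210 and 43836332. Capitals mark a match to GGGCGG, the core of a GC box, here read on the opposite strand as CCGCCC.
Distal: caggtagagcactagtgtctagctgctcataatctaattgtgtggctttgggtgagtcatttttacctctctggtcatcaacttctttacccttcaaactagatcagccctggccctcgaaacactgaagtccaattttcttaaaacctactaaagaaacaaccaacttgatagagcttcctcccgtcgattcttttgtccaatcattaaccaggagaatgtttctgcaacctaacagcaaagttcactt
Proximal: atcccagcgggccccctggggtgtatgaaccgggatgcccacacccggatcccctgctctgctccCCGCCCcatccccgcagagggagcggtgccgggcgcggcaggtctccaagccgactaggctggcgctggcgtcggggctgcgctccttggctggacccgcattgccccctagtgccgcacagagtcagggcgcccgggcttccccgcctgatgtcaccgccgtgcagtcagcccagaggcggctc
The distal stretch has 41.6% G or C and the proximal one 72.8%, beside a median of 52.4% over 32851 RefSeq promoters of the same length. The ratio of observed to expected CpG pairs was 0.293 at the distal and 0.669 at the proximal start, beside a median of 0.374. GGGCGG on either strand occurred 1 time in the proximal stretch and 0 times in the distal one, and in 32.7% of all promoters. TATAA, which overlaps no letter of GGGCGG, occurred in neither and in 22.8% of all promoters. These are matches of letters in a window, with no measurement of binding.

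Adrb3 RNA was divided between Adrb3-201, with 58.3% and 61.6%, and Adrb3-203, with 41.7% and 38.4%. Chrm2 RNA came mainly from its protein-coding transcript Chrm2-202, with 90.9% and 90.1%. Adrb1, Adra1d, Adcy5, Adcy6 and Grk5 each have 1 transcript in the files.

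Chrm2, the M2 muscarinic receptor that slows the heart beat, had 4.09 TPM in replicate 1 and 3.98 TPM in replicate 2, from 598 and 408 reads (mean 4.04 ± 0.0778 TPM, SD, n = 2). It is annotated at chr6:36388084-36528414 on the plus strand. It exceeded Adrb1 by a mean of 3.20-fold, a log2 ratio of 1.68 ± 0.20 (SD, n = 2). No other muscarinic receptor was detected. Chrm3, which couples to Gq, had 0.13 and 0.01 TPM, from 16 reads and 1 read. Chrm1 had 0.04 and 0.01 TPM, Chrm4 had 0.03 and 0.04 TPM, and Chrm5 had 0 reads in both libraries. Chrm2 held 95.3% of the muscarinic TPM in replicate 1 and 98.5% in replicate 2. The antisense gene 9330158H04Rik shares 142 exonic bases with Chrm2 and had 3.24 and 2.36 TPM. The strand setting of the counting is not stated. In replicate 1 both expected counts were fractional, 598.06 for Chrm2 and 53.94 for 9330158H04Rik. Fractional counts arise where reads are divided between genes by estimate. Reads from such a partner and from the gene cannot be told apart where they overlap.

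The alpha-2 receptors, which couple to Gi and were listed for context, were represented by Adra2b alone. Adra2b had 8.80 and 7.55 TPM, above every receptor among the 9 genes in both libraries. It stood a mean of 5.42-fold over Adra1b and 6.47-fold over Adrb1. Adra2a had 0.07 and 0.01 TPM and Adra2c had 0.03 and 0.02 TPM. Of the summed TPM of the 8 adrenergic receptor genes listed, Adra2b held 68.1% and 65.7%, Adra1b 12.8% and 11.8%, and Adrb1 8.98% and 11.9%. The highest receptor genes listed, Adra2b and Chrm2, both encode receptors that couple to Gi.

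**Figure D3:**
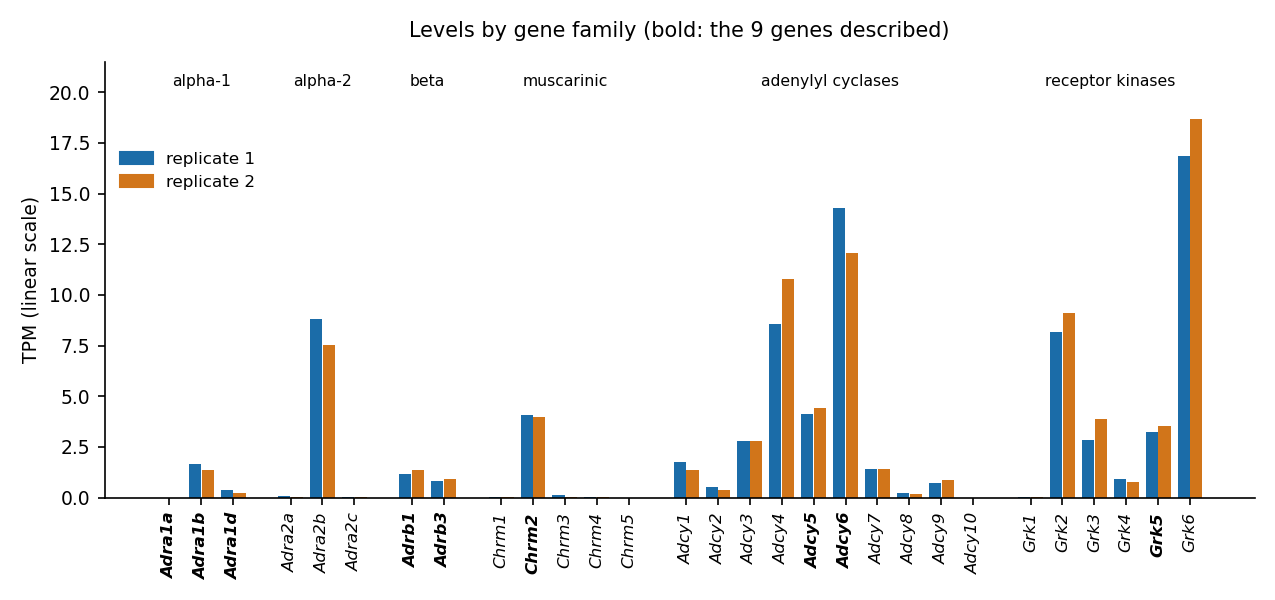
TPM of every listed alpha-1, alpha-2, beta and muscarinic receptor, adenylyl cyclase and receptor kinase on a linear axis, with 1 bar for each library and the 9 genes in bold. In each of the alpha-1, alpha-2 and muscarinic families a single gene holds most of the TPM, whereas Adcy6, Adcy4 and Adcy5 stand side by side among the cyclases.

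Of the cyclases, Adcy6 and Adcy5 encode the closely related, calcium-inhibited forms regarded as the main cyclases of heart muscle. Adcy6 had 14.3 TPM in replicate 1 and 12.1 TPM in replicate 2, from 2412 and 1440.3 reads (mean 13.2 ± 1.56 TPM, SD, n = 2), the highest level of the 9 genes. Adcy5 had 4.13 and 4.40 TPM, from 814 and 613 reads (mean 4.26 ± 0.191 TPM, SD, n = 2). Adcy6 exceeded Adcy5 by a mean of 3.08-fold, and their authors' intervals were apart in both libraries. Together they held 53.4% and 48.0% of the TPM of the 10 cyclases. Adcy4, a cyclase not inhibited by calcium, lay between them with 8.59 and 10.8 TPM. Adcy3 followed with 2.79 and 2.80 TPM. Adcy10, the soluble, bicarbonate-activated cyclase, had 0 reads in both libraries. In all, 6 of the 10 cyclases were detected.

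The longest identical stretch of Adcy5 and Adcy6 is shown, as for the beta receptors, because shared sequence limits how reads can be assigned. It is 29 coding bases, in capitals, at chr16:35298575-35298603 (plus strand) in Adcy5 and chr15:98594338-98594366 (minus strand) in Adcy6 on GRCm38. The 20 bases printed on each side follow the spliced transcript and cross an exon junction in both genes.
Adcy5: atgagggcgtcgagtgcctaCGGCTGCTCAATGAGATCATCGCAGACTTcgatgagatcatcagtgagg
Adcy6: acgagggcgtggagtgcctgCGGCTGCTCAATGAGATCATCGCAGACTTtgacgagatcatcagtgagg
All 100-base runs of Adcy5 were unique to it. In Adcy6 93.1% were, and the others also lie in the antisense gene Gm29331, which shares 605 exonic bases with it and had 1.80 and 3.60 TPM. Gm29331 was thus higher in the library in which Adcy6 was lower. The Gm29331 levels rest on 26.06 reads in replicate 1 and 36.73 in replicate 2, against 2411.94 and 1440.27 for Adcy6. Such fractional counts arise where reads in shared sequence are divided by estimate, so the levels of these genes are not independent. A link between these differences was not tested.

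Grk5, a receptor kinase bound to the plasma membrane, had 3.23 and 3.55 TPM, from 283 and 219 reads (mean 3.39 ± 0.226 TPM, SD, n = 2), at chr19:60889749-61095968 on the plus strand. Its family was led by Grk6, with 16.9 and 18.7 TPM, a mean of 5.24-fold over Grk5. Grk2, the kinase recruited by free G protein beta-gamma subunits, had 8.17 and 9.13 TPM. Grk5 lay below Grk2 in both libraries, with a log2 ratio of -1.35 ± 0.02 (SD, n = 2). Grk5 held 10.1% and 9.86% of the receptor kinase TPM. Grk1, the rhodopsin kinase, was lowest with 0.02 and 0.04 TPM. The arrestins Arrb2 and Arrb1, which bind phosphorylated receptors, had 9.46 and 8.61 TPM and 3.86 and 3.60 TPM.

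By mean TPM, the order of the 9 genes was Adcy6, Adcy5, Chrm2, Grk5, Adra1b, Adrb1, Adrb3, Adra1d and Adra1a. Both libraries of the higher gene lay above both libraries of the lower one for 7 of these 8 neighbours, the exception being Adra1b and Adrb1. The authors' intervals nevertheless overlapped in both libraries for Adcy5 and Chrm2, for Adra1b and Adrb1, and for Adrb1 and Adrb3. These steps are within the estimation error of single libraries. For Chrm2 and Grk5 and for Adra1d and Adra1a the intervals overlapped in replicate 2 but not in replicate 1. Of 9 gene pairs set for comparison, 8 did not overlap, beside 94.1% of all pairs of detected protein-coding genes. The background holds detected genes only, whereas Adrb3, Adra1a, Adra1d and Chrm3 in the set pairs were not detected. Adra1a entered its pairs at the limit of 3 counts. The shares thus cover unlike sets, and the result says nothing particular about these genes.

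The libraries were then compared gene by gene with an exact two-sided binomial test on rounded expected counts, scaled by TMM (a normalization to the bulk of genes) and adjusted by the Benjamini-Hochberg method over 16621 genes with at least 20 reads in all. Calls needed both a 2-fold difference or more and an adjusted p below 0.05. The test compares these libraries and covers counting error only. None of the 8 tested members was called, beside 4.69% of all genes tested, 3.32% higher in replicate 1 and 1.37% higher in replicate 2. At an unadjusted p under 0.05 there was 1 member, Adcy6, beside 46.5% of all genes, and it was also the 1 member at an adjusted p under 0.05 at any fold, beside 39.6% of all genes. Adcy6 was higher in replicate 1 by 0.29 on the log2 scale (95% interval 0.19 to 0.38), a 1.22-fold difference with a Benjamini-Hochberg adjusted p of 1.42e-08 in the exact binomial test. The widest difference was that of Adra1d, 0.58 on the log2 scale with an interval from -0.59 to 1.95, which includes 0. The median difference of the 8 genes was 0.03, beside -0.00045 over all genes, with 4 genes higher in replicate 1 and 4 in replicate 2.

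**Figure D4:**
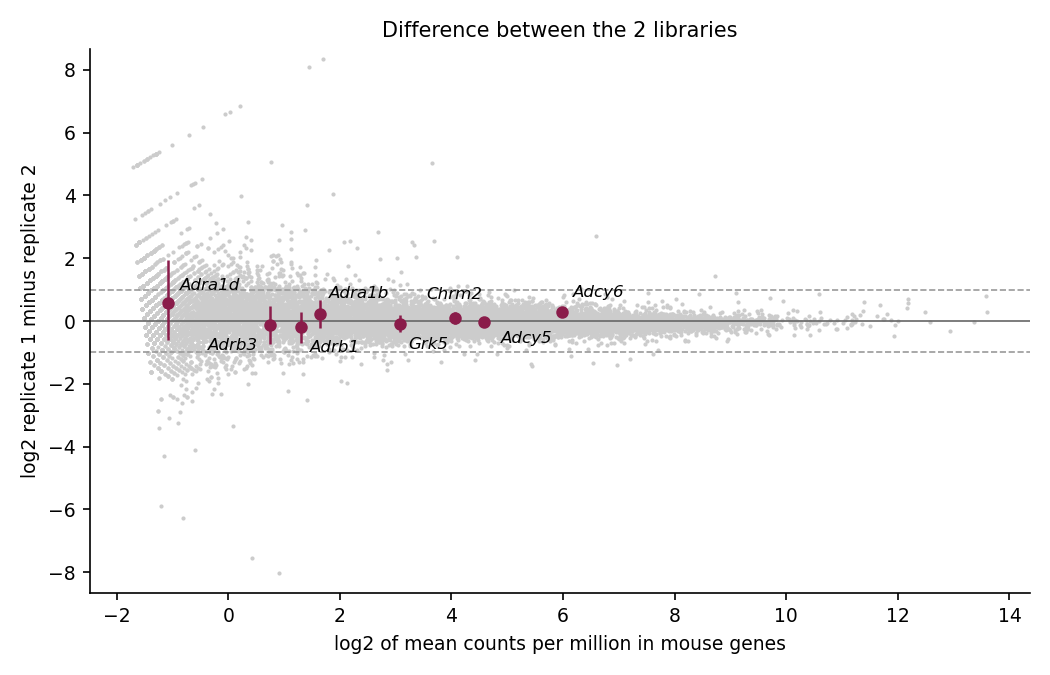
Log2 difference between the libraries, with replicate 1 minus replicate 2 on the vertical axis, against the log2 of the mean CPM (counts scaled to library size) on the horizontal axis, for 16621 genes in grey and the 8 tested members in colour with their exact 95% intervals. Dashed lines mark a fold of 2; all members lie between them, and only the interval of Adcy6 excludes 0.

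Of the 4 markers of liver and yolk sac, 4 were called higher in replicate 1, with a summed level of 141 TPM against 24.2 TPM in replicate 2. The 5 erythroid markers had a median difference of 0.29 on the log2 scale, close to that of Adcy6, and summed levels of 38880 TPM in replicate 1 and 32346 TPM in replicate 2. Median differences were -0.19 for endothelium and endocardium, -0.26 for cushion and fibroblast mesenchyme and -0.09 for cardiomyocytes. No marker of these 4 lists was called. Whether any of these cell types has a part in the Adcy6 difference was not tested.

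The rest of the pathway was read from 12 lists holding 92 genes, of which 91 were matched by identifier and 64 were detected. Of the 77 genes with enough reads to test, 1 was called higher in replicate 2, beside 1.37% of all genes. This was Slc5a7, which takes choline into cholinergic nerve endings and had 0.17 and 0.46 TPM (exact binomial test, adjusted p = 0.000517).

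**Figure D5:**
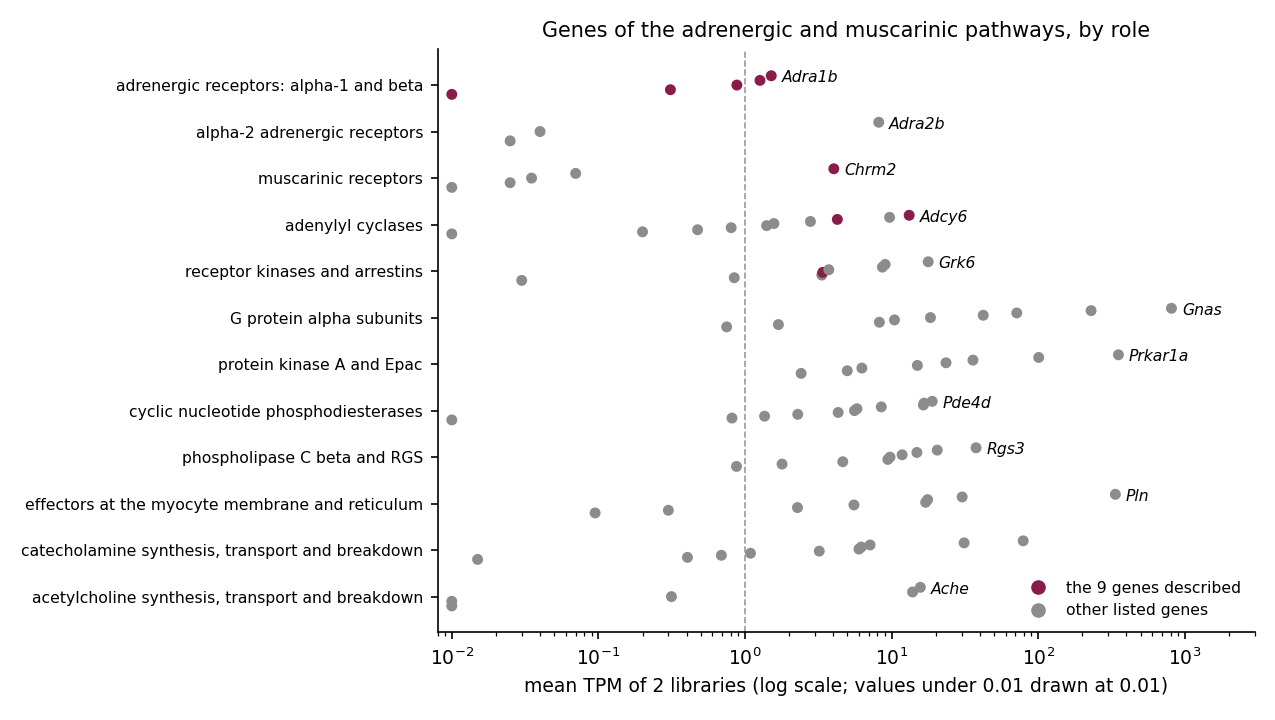
Mean TPM of the 2 libraries on a log axis for each measured gene of the 12 pathway lists, with the 9 genes in colour and the highest gene named for lists whose highest gene the text describes; values under 0.01 are drawn at 0.01 and the dashed line is 1 TPM. The receptors and cyclases lie left of the highest G protein, protein kinase A and effector genes.

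Genes for making the ligands were unevenly present. Th, the first enzyme of catecholamine synthesis, had 1.09 TPM in both libraries, and Dbh, which makes norepinephrine, had 0.34 and 0.47 TPM. Pnmt, which turns norepinephrine into epinephrine, had 3.55 and 2.87 TPM, a mean of 7.98-fold over Dbh. Ddc, the enzyme between Th and Dbh in the synthesis, had 29.5 and 33.0 TPM, the vesicular transporter Slc18a2 had 6.66 and 7.60 TPM, and the degrading enzyme Maob had 6.17 and 6.25 TPM. The norepinephrine transporter Slc6a2 was lowest, with 0 and 2 reads. For acetylcholine, the synthesizing enzyme Chat had 0 reads in both libraries, where 3 reads would give 0.0388 and 0.0549 TPM. The vesicular transporter Slc18a3 had 1 and 0 reads. The degrading enzymes Ache, at 15.0 and 16.4 TPM, and Bche, at 13.1 and 14.7 TPM, were detected. Chrm2 RNA was thus present with almost no RNA for acetylcholine synthesis. Of 6 markers of sympathetic and neural crest cells 1 was detected, Gata3. Below the threshold, Sox10 had 0.84 and 0.93 TPM, Tfap2b 0.98 and 0.35, and Phox2a 0 and 0.03. Of the 5 neuron markers listed 4 were detected, among them Tubb3 at 10.15 and 10.06 TPM and Snap25 at 7.83 and 8.91 TPM. Prph, with 0.06 and 0.27 TPM, was not.

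The highest of the G protein alpha subunits downstream stood far above the receptors, but not every subunit did. Gnaq, with 6.80 and 9.70 TPM, overlapped Adra2b, with 8.80 and 7.55 TPM. Gnaz, with 1.52 and 1.86 TPM, lay below Chrm2 in both libraries. Gnas, encoding the Gs alpha subunit, had 814 and 808 TPM, a mean of 61.8-fold over Adcy6. The Gi genes Gnai2 and Gnai3 had 232 and 227 TPM and 67.2 and 75.6 TPM. Gna11, of the Gq class through which alpha-1 receptors act, had 40.8 and 43.5 TPM, and Gna14 of the same class was lowest with 0.87 and 0.63 TPM. In the list of phospholipase C and RGS genes, the RGS gene Rgs3 led with 39.0 and 36.4 TPM, followed by Plcb4 with 22.7 and 18.3, Rgs2 with 14.5 and 15.3 and Plcb3 with 10.6 and 13.0, while Plcb2 was lowest with 1.02 and 0.73 TPM.

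Targets of cyclic AMP were all detected on the list of 8. The regulatory subunit Prkar1a had 319 and 386 TPM, and the catalytic subunits Prkaca and Prkacb had 102 and 99.9 TPM and 32.2 and 39.5 TPM. Prkar2a had 22.1 and 24.9 TPM, and Rapgef4, an Epac gene, was lowest with 2.91 and 1.92 TPM. Of the 11 phosphodiesterases measured, which break down cyclic nucleotides, 9 were detected. Pde4d had 20.4 and 17.5 TPM, Pde4b 17.4 and 15.9, Pde1a 15.5 and 17.4 and Pde7a 9.19 and 7.82, and Pde4c was lowest with 1 and 0 reads.

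Effector genes at the end of both arms were present. Pln, encoding phospholamban, the pump inhibitor that protein kinase A phosphorylates, had 331 and 342 TPM. Cacna1c, the L-type calcium channel, had 32.1 and 28.5 TPM, and Ryr2, the calcium release channel, had 19.4 and 14.7 TPM. Kcnj5, which with Kcnj3 forms the channel opened through Chrm2, had 14.3 and 20.9 TPM. Hcn2 was lowest of this list with 0.09 and 0.10 TPM.

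Genes most like the members in level were taken as the protein-coding genes next above and next below in mean TPM. For Adcy6 these were Ift74 and Cln3, for Adcy5 Abhd14b next above, for Chrm2 Adnp and Evc, and for Grk5 Klf12 and Rdh10. Adra1b lay next to Tbxas1, Adrb1 between Hlf and Fam84a, Adrb3 between Sox10 and Krt222, and Adra1d between Sdr42e1 and Agr2. Closeness in level over 2 libraries is a description only. Adcy6 stood at the percentile 68.6 of protein-coding genes, Chrm2 at 52.8, Adrb1 at 44.1 and Adra1d at 35.2.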

How the data were processed

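Total RNA of embryonic heart was measured in 2 libraries, from 10 ng of RNA each per the labels' protocols. The authors deposited, per the file headers, expected counts (reads estimated per gene, not normalized), TPM, posterior means of both with TPM interval bounds whose level is not stated, and each transcript's percent of its gene. The TPM scaling includes spike-in RNAs, which held 8.43% and 8.61% of counts. The deposited notes name mm10 and annotation M4; for the aligner and quantifier, names and versions were not given in the sources used here. Symbols, coordinates and transcript sequences came by identifier from GENCODE M21 (GRCm38), which matched 42462 of 43346 mouse genes, and promoters from RefSeq, which held 5 of the 9 members.

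Expected counts were rounded for the binomial test (0.5 added to each count for log2 values), with TMM from edgeR 4.0.16 and size factors from DESeq2 1.42.0 as an alternative, in R 4.3.3; Python 3.11.15 with scipy 1.17.1 was used otherwise. A pair of genes was apart when both libraries of one lay above both of the other, and the limit for 0 reads was 3 counts. Intervals and limits cover counting error only. On simulated data for the 2 libraries, the test recovered 87 of 100 genes with a 3-fold change and 94 of 100 with a 5-fold change. It called 1 of 16421 unchanged genes. The simulated counts held counting error alone, which is the spread the test assumes. These rates are therefore not error rates for the measured libraries. A chi-square of 24.8 per gene separated the libraries, so both were kept.

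The members and lists were chosen with earlier results of these data known. Named were all members, every gene of lists of up to 5, the 4 highest, the lowest and any called gene of longer lists, the level neighbours and transcripts holding at least 10% of a gene; some genes that this rule names are not reported here. Alternatives used posterior means, other scalings and thresholds, protein-coding transcripts alone, and each library alone.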

Additional observations from a re-analysis of the deposited data

How the results depend on the processing

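Of the 9 genes, 6 were detected at 1 TPM, also with posterior mean TPM and with either library alone, and 7 with TPM rescaled to protein-coding genes or at a threshold of 0.5 TPM. At 5 TPM the count was 1. None was called between the libraries under any of 5 alternatives (DESeq2 size factors, total counts, no filter, a fold of 1.5, posterior mean counts), and Adcy6 alone had an unadjusted p under 0.05 in each. Slc5a7 was called under each of the 5. Chrm3 was called in addition without the filter, and Pde8b at a fold of 1.5. Rescaling to protein-coding genes raised every level above 0, Adrb3 to 1.17 TPM and Adcy6 to 17.5 TPM. Protein-coding transcripts alone lowered Adra1b to 0.99 TPM and Chrm2 to 3.65 TPM. The ratio of Adrb1 to Adra1b was -0.25 on the log2 scale with overlapping libraries. It was -0.28 with posterior means and -0.35 without length correction, both with the libraries apart, and turned to 0.37 on protein-coding transcripts. Without replicate 1 it was 0.011, and without replicate 2 it was -0.52. The other 8 pairs kept their direction under every alternative run. No paired analysis was possible because the design has a single group. Depth limits Adra1d, with 9 reads in replicate 2, and Adra1a, at 0.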
